A study of Oncorhynchus mykiss with 18 samples.

Results

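The abundant noncoding transcripts of rainbow trout (Oncorhynchus mykiss) alevins were taken as all transcripts with a RefSeq accession beginning XR_, the prefix for a predicted RNA with no coding sequence, and with a mean of 20 CPM or more over all 18 libraries. CPM is the estimated count of a transcript scaled to the total of its library, so that all libraries have the same sum. This selected 179 of the 8021 XR_ transcripts among 79244 transcripts in all. Members were thus selected on their mean CPM alone, and their levels are given as a description with no test. Their change between groups was not used directly in the choice. A member low in solvent could still pass through groups where it was high, as did 2 with a solvent mean under 20 CPM.

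Long noncoding RNAs are made by RNA polymerase II and are often capped, spliced and polyadenylated like messenger RNA. Some recruit chromatin regulators or bind proteins and microRNAs, some act by being transcribed beside a gene, and for most no role is known. An XR_ record can also be a transcript of a coding gene that lacks its reading frame, or a transcribed pseudogene. Estrogens act through nuclear receptors that bind DNA and change the transcription of nearby genes, noncoding genes included.

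Alevins, the fish between hatching and yolk absorption, were exposed in water at 14 °C to 17α-ethinylestradiol (EE2), a synthetic estrogen, for 96 hours from hatching and were sampled whole at 4 days after hatching. Controls received the solvent alone (dimethyl sulfoxide at 0.01%). The measured EE2 concentrations were 1.13 and 1.57 ng/L in the low groups, 6.22 ng/L in the middle one, and 16.3 ng/L and 55.1 ng/L in the high groups. Each of the 6 groups held 3 libraries (replicates A, B and C), each from a pool of 3 alevins. Sequencing libraries kept the strand and were prepared from poly(A)-selected RNA, so a noncoding RNA without a poly(A) tail would be poorly captured. Whether the 3 pools of each group were kept in different tanks is not stated. The p-values therefore describe only pool-to-pool spread, part or all of which may be technical. In RNA from whole fish, fewer cells of a type and less RNA per cell cannot be told apart.

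Library totals ran from 12658946 to 17076432 estimated counts in the solvent group and from 13013502 to 16122131 at 55.1 ng/L. They were higher at 1.13 (26160497 to 28166132), 1.57 (23837786 to 32851570) and 16.3 ng/L (19679734 to 29635724). In the solvent and 55.1 ng/L libraries, length minus effective length was 1 constant per library over the longer transcripts (SD of at most 0.005 bases). In the other 4 groups it varied from transcript to transcript (SD of 297 to 369 bases). Only 55.1 ng/L therefore shares its kind of quantification with solvent, and every other difference from solvent cannot be told apart from that of the quantification. As a check of the exposure, esr1, which encodes estrogen receptor alpha, had a mean of 3.02 ± 0.559 CPM (SD, n = 3) in solvent and of 35.3 ± 3.66 CPM at 55.1 ng/L. Of the marker lists for whole-fish tissues, at least 1 gene was found for each of liver, muscle, skin, skeleton, lens, nerve, blood, intestine and kidney. The single pancreas marker found stayed under 1 CPM.

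The 179 members together took 1.37 to 1.79% of a library's counts. Most lay close to the threshold: 114 had means of 20 to 50 CPM, 35 of 50 to 100, 17 of 100 to 200, 7 of 200 to 500, and 6 of 500 CPM or more. The 10 most abundant held 43.4% of the members' summed CPM. In every library 117 members reached 20 CPM, 141 did so in all 6 group means, and in the solvent mean all but 2 did. Just inside the threshold lay XR_002468347.1, XR_002475825.1 and XR_002474095.1 at 20.2, 20.2 and 20.1 CPM. Just outside lay XR_002469612.1, XR_002467891.1 and XR_002471218.1 at just under 20, 19.8 and 19.6 CPM.

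Members were long for noncoding records, with a median of 1802 bases (quartiles 975.5 and 3137). The other 7842 XR_ transcripts had a median of 1123 bases, and the 7033 coding transcripts at 20 CPM or more one of 2777 bases. Under 500 bases lay 16 members (8.94%), against 0.853% of those coding transcripts and 21.2% of the other XR_ transcripts. A threshold in CPM favours longer transcripts, so both differences from the other XR_ transcripts can follow from the choice of members. The shortest was XR_002474349.1 at 151 bases and the longest XR_002470824.1 at 13747 bases, followed by XR_002470823.1 (13669) and XR_002468065.1 (10497). Longer transcripts give more reads, so an order of members by CPM is one by reads. Levels per length are given in TPM, the authors' abundance per length. XR_002474306.1, the highest in mean CPM, stood at 1082 TPM over the 18 libraries. On that scale XR_002474743.1 (226 bases) came first at 8787 TPM over the 18 libraries, then LOC110494310 (XR_002469251.1, 492 bases) at 3868 and XR_002468655.1 (288 bases) at 2525. For such short members TPM divides by a small effective length, which was computed differently in the 2 kinds of libraries described above.

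**Figure D1:**
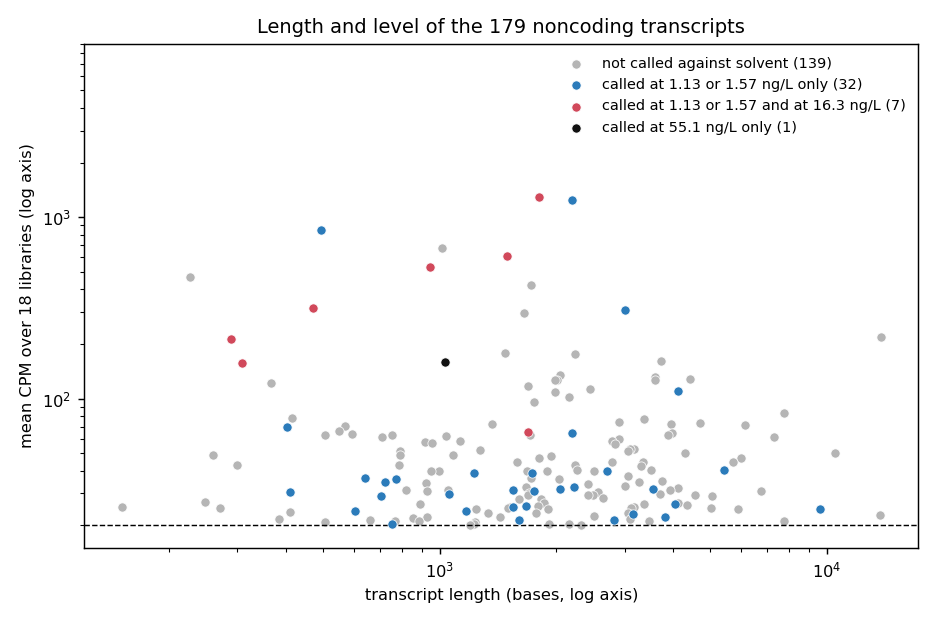
Mean CPM over the 18 libraries (log axis) against transcript length in bases (log axis) for the 179 members, with the 20 CPM threshold as a dashed line and colours for the comparisons with solvent in which a member was called. The 7 members called at both low and high concentrations run from 288 to 1801 bases, and the highest of all is XR_002474306.1 at 1298 CPM.

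The gene table matched 56 members (31.3%), against 25.1% of all XR_ transcripts, and 123 had no match. Of the matched, 33 belong to genes listed as long noncoding RNA, 18 to protein-coding genes, 4 to transcribed pseudogenes and 1, LOC101268898, to a miscellaneous RNA gene. Only 3 carry a symbol other than a LOC number: cirbpb, rarres3l and si:dkey-89b17.4. No well-known noncoding gene from a list of vertebrate examples (malat1, neat1, gas5, the snhg host genes and others) was found by symbol among the transcripts. An unmatched member is named by its accession only, and what it does is not known here.

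Levels were steady in most members. The median coefficient of variation over the 18 libraries was 17.5%, against 13.7% for coding transcripts at 20 CPM or more and 76.0% for the other XR_ transcripts, which are mostly low. Under 20% lay 108 members and over 50% lay 14. The steadiest was XR_002474449.1 (1124 bases), whose libraries ran from 52.1 to 65.4 CPM, a variation of 6.35%. Close to it were LOC110530645 (XR_002474565.1), a transcribed pseudogene, at 6.98% and XR_002472588.1 at 7.26%. The abundant LOC101268898 (XR_002468485.1, 1012 bases) had group means between 873 ± 191 CPM (solvent) and 560.4 ± 63.6 CPM (55.1 ng/L). No difference of it from solvent was called by edgeR (lowest adjusted p = 0.166), and the authors' deposited table calls it lower at 1.57 ng/L (adjusted p = 0.0382).

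Against solvent, called members were mostly lower at the 2 lowest concentrations. At 16.3 ng/L the balance depended on the tool, with 6 higher and 1 lower by edgeR, 9 higher and 12 lower by DESeq2 (background 2.16%), and a median change of all members below 0. At 1.13 ng/L edgeR called 34 of the 179 members, 8 higher and 26 lower, where 3.76% of all 59811 transcripts tested were called. At 1.57 ng/L it called 18, 4 higher and 14 lower (background 1.67%). At 16.3 ng/L it called 7 (background 0.234%), and at 55.1 ng/L only XR_002472325.1, which fell (background 0.207%). Coding transcripts at 20 CPM or more were also called more often than the background, 11.5% of them at 1.13 ng/L, 5.64% at 1.57 and 0.782% at 16.3 ng/L. The members' own shares were 19%, 10.1% and 3.91%. At 55.1 ng/L the shares were 0.725% of those coding transcripts and 0.559% of the members. All members passed the filter on low counts and entered every test. After an offset took out the dependence of each library on transcript length, the calls were 8 higher and 39 lower at 1.13 ng/L and 5 higher and 21 lower at 1.57 ng/L, with 5.53% and 2.63% of all transcripts called, while the share of higher calls among all called transcripts went from 64.4% to 32.2% and from 69.8% to 34.5%. That correction moved the median of all transcripts by -0.11 (log2) at 1.13 ng/L.

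At 6.22 ng/L edgeR called 0 members (background 0.0669%), with 25 at an unadjusted p under 0.05, where 6.86% of all transcripts lay under it. DESeq2 also called 0 there (background 1.02%). At 55.1 ng/L 41 members lay under the unadjusted threshold (background 9.03%), and DESeq2 called 13, 9 higher and 4 lower (background 2%). Of the 7033 coding transcripts at 20 CPM or more, 903 lay under the unadjusted threshold at 6.22 ng/L and 1317 at 55.1 ng/L. Median log2 fold changes of the members were -0.20 at both 1.13 and 1.57 ng/L, 0.06 at 6.22, -0.07 at 16.3 and 0.01 at 55.1 ng/L. Over all transcripts tested the 5 medians lay between -0.01 and 0.02. The other 3722 XR_ transcripts tested had medians of -0.08 at 1.13, -0.14 at 1.57, -0.02 at 6.22, -0.11 at 16.3 and -0.03 at 55.1 ng/L. In coding transcripts at 20 CPM or more they were -0.04, 0.01, 0.06, 0.06 and 0.02. Of the other XR_ transcripts edgeR called 16 higher and 56 lower at 1.13 ng/L (1.93%), and 6 higher and 31 lower at 1.57 ng/L (0.994%). A shift to lower values at the low concentrations was thus not particular to the members. All 5 comparisons share the same 3 solvent libraries, so they are not independent of each other.

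Single libraries decided many of these calls, among the members and among all transcripts. Without solvent replicate A the count of members at 1.13 ng/L fell to 9 and without solvent B to 10. It fell to 10 without 1.13 ng/L A and to 8 without 1.13 ng/L B. Calls over all transcripts fell from 2247 to 743, 811, 917 and 712 in those fits. At 1.57 ng/L it fell to 3 without solvent A, solvent B or 1.57 ng/L B, to 5 without 1.57 ng/L A and to 7 without 1.57 ng/L C. It was 10 without 1.13 ng/L A or 55.1 ng/L A, and 11 without 16.3 ng/L C or 55.1 ng/L B. At 16.3 ng/L the count of members was 0 without solvent A or B and 4 without any 1 of the 3 exposed libraries. Calls over all transcripts there were 140 with every library and 99 and 89 without solvent A or B. They were 121, 101 and 93 without exposed A, B or C. At 55.1 ng/L the count of members was 2 without solvent C or 1.57 ng/L A and 7 without 6.22 ng/L A. Those fits called 156, 112 and 134 of all transcripts, beside 124 with every library.

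**Figure D2:**
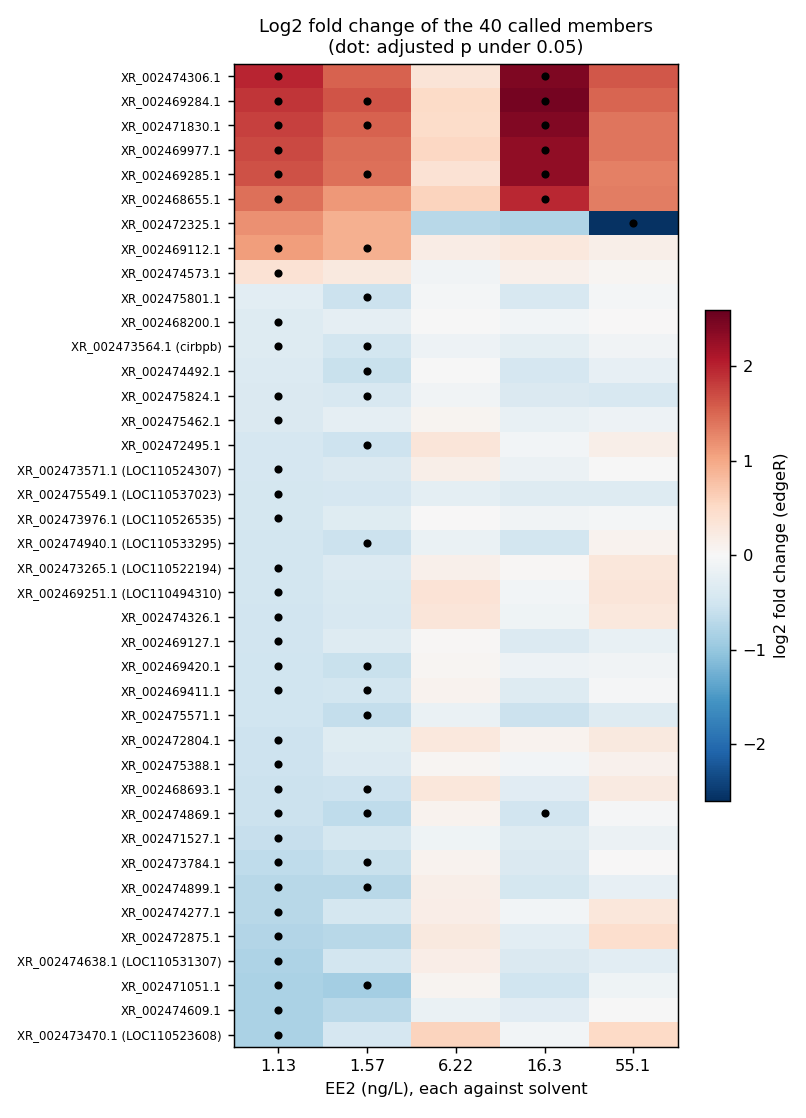
Log2 fold change against solvent (colour) of the 40 members called in at least 1 comparison, in rows ordered by the change at 1.13 ng/L, with columns for the 5 EE2 concentrations and a dot where the adjusted p was under 0.05. The 6 rows at the top are high at 1.13, 1.57, 16.3 and 55.1 ng/L and paler at 6.22 ng/L. XR_002472325.1 goes from 1.20 at 1.13 ng/L to -2.57 at 55.1 ng/L. The 30 members lower at 1.13 or 1.57 ng/L are pale at 6.22 and 55.1 ng/L.

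By their edgeR calls the members fell into 4 classes: 32 called at 1.13 or 1.57 ng/L only (2 higher, 30 lower), 1 at 55.1 ng/L only, 7 in both ranges (6 higher, 1 lower) and 139 nowhere. Called at both 1.13 and 1.57 ng/L were 13, of which 4 were higher and 9 lower. None of the 179 was called by edgeR in opposite directions in different comparisons, but the authors' deposited table calls 3 so: XR_002472325.1, XR_002474743.1 and XR_002469970.1.

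The 6 higher in both ranges were XR_002474306.1 (1801 bases), XR_002469977.1 (1492), XR_002469284.1 (943), XR_002471830.1 (471), XR_002469285.1 (308) and XR_002468655.1 (288). None is matched to a gene. XR_002474306.1, XR_002469977.1, XR_002469284.1 and XR_002471830.1 are among the 10 members with the highest mean CPM. XR_002469284.1 and XR_002469285.1 have adjacent accessions, and XR_002468655.1 is named after its values were seen. XR_002469284.1 measured 182, 189 and 212 CPM in the solvent libraries, 779, 718 and 646 at 1.13 ng/L and 562, 657 and 519 at 1.57 ng/L. It measured 402, 143 and 178 CPM at 6.22 ng/L, 928, 1003 and 972 at 16.3 ng/L and 339, 406 and 712 at 55.1 ng/L. All exposed libraries except 2 at 6.22 ng/L lay above every solvent library, and 16.3 ng/L lay above every other group.

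XR_002469284.1 rose by 1.86 ± 0.35 (log2 fold change ± SE) at 1.13 ng/L (adjusted p = 0.0110), 1.63 ± 0.35 at 1.57 (0.0351) and 2.49 ± 0.36 at 16.3 ng/L (0.00802), all edgeR. At 6.22 ng/L its log2 fold change was 0.49 ± 0.34 (adjusted p = 0.829) and at 55.1 ng/L 1.5 ± 0.35 (0.144). In the other 5 the mean was likewise highest at 16.3 ng/L, next at 1.13 ng/L and lowest in solvent, with log2 fold changes of 1.42 to 1.98 at 1.13 ng/L and 1.97 to 2.43 at 16.3 ng/L, all called. XR_002474306.1 had means of 475 ± 36.3 CPM in solvent, 1881 ± 558 at 1.13 ng/L and 2290.2 ± 359 at 16.3 ng/L. At 1.57 ng/L only XR_002469284.1, XR_002471830.1 and XR_002469285.1 passed. The calls of all 6 at 16.3 ng/L were lost without solvent replicate A or without solvent B, while the log2 fold change of XR_002469284.1 stayed between 2.39 and 2.62 over the 18 fits that left out 1 library. Its call at 1.13 ng/L was also lost without solvent A or B. Its call at 1.57 ng/L was lost in 7 of those 18 fits, with the replicate block and with only the 2 groups compared.

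Their levels moved several-fold together, and their proportions varied less than their levels. As a share of the summed CPM of the 6, XR_002474306.1 lay between 35.1 and 49.5% in the 18 libraries, XR_002469977.1 between 16.8 and 22.1% and XR_002469284.1 between 14.1 and 19.1%. XR_002471830.1 lay between 8.45 and 11.3%, XR_002468655.1 between 5.80 and 9.46% and XR_002469285.1 between 4.15 and 5.82%. Each share is of a sum that holds the transcript itself. As ratios to XR_002474306.1, XR_002469977.1 ran from 0.340 to 0.615, XR_002469284.1 from 0.286 to 0.512 and XR_002471830.1 from 0.171 to 0.322. XR_002468655.1 ran from 0.130 to 0.255 and XR_002469285.1 from 0.0838 to 0.161. The set was put together by the same calls that it is described with, so this carries no test. At 6.22 ng/L all 6 were high in library A and low in B and C: their sum was 2558 CPM in the highest of the 3 libraries and 809 in the lowest, against 1141 to 1294 in solvent.

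The sum of the 6 was highest in the groups with the highest library totals, 1.13, 1.57 and 16.3 ng/L, whose effective lengths also varied from transcript to transcript. Means were 4305 ± 893, 3256 ± 208 and 5552 ± 437 CPM (SD, n = 3), and the part of the quantification in this was not tested. Within the kind of quantification that solvent shares, the 55.1 ng/L libraries measured 2182 to 3908 CPM, all above solvent, while the totals of both groups overlapped. The 6 were chosen by calls against these same solvent libraries, so this carries no test, and edgeR called none of them at 55.1 ng/L. Within the other kind, 16.3 ng/L ran from 5263 to 6055 CPM and 6.22 ng/L from 809 to 2558. The 6 made up 7.46 to 9.25% of member reads in solvent and 31.0 to 33.8% at 16.3 ng/L. Without them the members' share of all counts was 1.37 ± 0.0852% in solvent, 1.19 ± 0.0275% at 1.13, 1.13 ± 0.0594% at 1.57, 1.30 ± 0.0587% at 6.22, 1.16 ± 0.0516% at 16.3 and 1.27 ± 0.0380% at 55.1 ng/L.

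**Figure D3:**
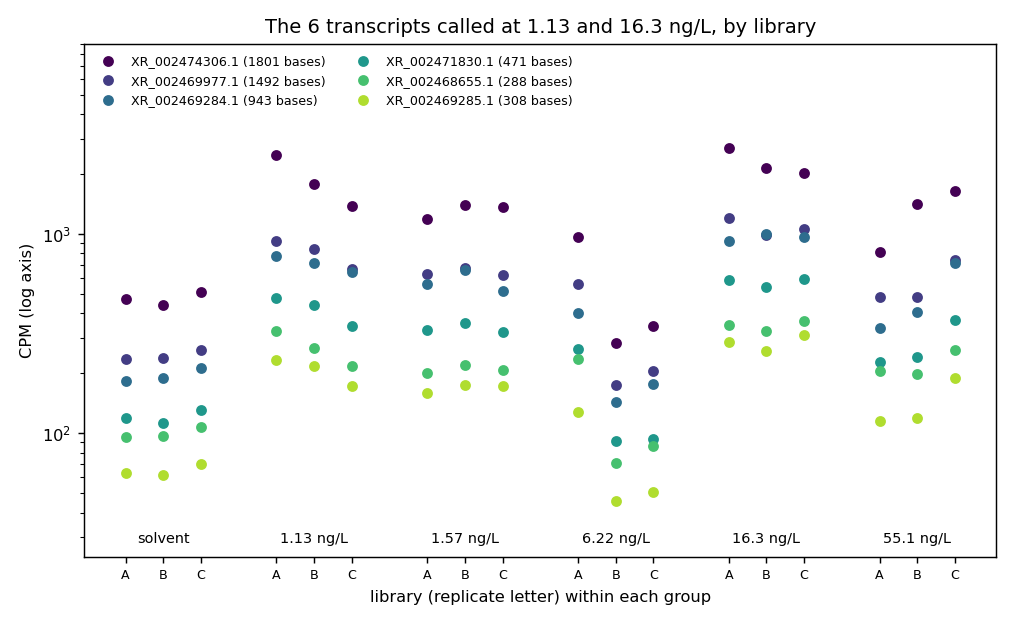
CPM (log axis) of the 6 transcripts called higher at both 1.13 and 16.3 ng/L, with 1 point per transcript and library and the 3 libraries (A, B, C) of each group side by side. The 6 move up and down together: XR_002474306.1 runs from 284 CPM in a 6.22 ng/L library to 2699.9 in a 16.3 ng/L library, and the 3 libraries at 6.22 ng/L differ more than those of solvent.

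XR_002472325.1 (1029 bases, not matched to a gene) was the member with the lowest p among the 6 groups (adjusted p = 0.000182) and the only one called at 55.1 ng/L. It measured 168, 148 and 138 CPM in solvent, 318, 324 and 403 at 1.13 ng/L and 243, 281 and 306 at 1.57 ng/L. It measured 105, 112 and 31.4 CPM at 6.22 ng/L, 96.0, 84.5 and 51.3 at 16.3 ng/L, and 20.6, 23.4 and 23.0 at 55.1 ng/L. The libraries of both low concentrations lay above all solvent libraries, and those of the 3 higher concentrations lay below them.

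At 55.1 ng/L, XR_002472325.1 fell by 2.57 ± 0.33 on the log2 scale (adjusted p = 0.00346, edgeR). Leaving out any 1 library kept the adjusted p between 2.49e-05 and 0.0250, and the 2 groups share their kind of quantification. Its log2 fold changes of 1.20 ± 0.31 at 1.13 ng/L (adjusted p = 0.0524) and 0.93 ± 0.31 at 1.57 ng/L (0.159) did not pass in edgeR, nor did -0.73 ± 0.31 at 6.22 ng/L (0.712) and -0.79 ± 0.31 at 16.3 ng/L (0.440). In the trend it fell by 0.59 ± 0.10 per unit of log2 of the concentration plus 1 (adjusted p = 0.0105). That call was lost when the 1.13 and 1.57 ng/L groups were left out (adjusted p = 0.263).

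The trend called 2 members, 1.12% of them, against 0.513% of all transcripts and 1.48% of coding transcripts at 20 CPM or more. Besides XR_002472325.1 it called XR_002468676.1 (1715 bases), which rose. XR_002468676.1 measured 381, 402 and 419 CPM in solvent and 502, 516 and 455 at 55.1 ng/L, and its slope was 0.10 ± 0.02 per log2 unit (adjusted p = 0.0441). That call was lost in 15 of the 18 fits without 1 library, and with the replicate block (adjusted p = 0.0799). It was also lost without the 1.13 and 1.57 ng/L groups and within the 1.13 to 16.3 ng/L groups only. The trend called 4 members without solvent replicate C, 3 without 6.22 ng/L C, 2 without 1.57 ng/L A or 16.3 ng/L A, and 1 without any of the other 14 libraries. The fits with 2 or more called 521, 418, 216 and 286 of all transcripts, beside 307 with every library. The F test for any difference among the 6 groups called 59 members (background 7.21%), 33% of them, against 22.7% of coding transcripts at 20 CPM or more. Those 59 included 50 of the 123 unmatched members, 8 of the 33 long noncoding RNAs, 1 of the 18 transcripts of coding genes (cirbpb) and none of the 4 pseudogene transcripts.

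Most called members belonged to the class that was lower at the low concentrations. For the 30 members called lower at 1.13 or 1.57 ng/L only, the median log2 fold change was -0.50 at 1.13 ng/L, -0.47 at 1.57, 0.07 at 6.22, -0.27 at 16.3 and -0.02 at 55.1 ng/L. The first 2 values follow from the choice. The last 3 are limited by it, since members called at 6.22, 16.3 or 55.1 ng/L were left out of the class. All share the solvent libraries, so none of these values carries a test. At 16.3 ng/L 28 of the 30 lay below 0, at 6.22 ng/L 10 and at 55.1 ng/L 17. Falls were small: the 26 members lower at 1.13 ng/L had log2 fold changes from -0.83 to -0.33 and the 14 at 1.57 ng/L from -0.87 to -0.42, so none fell by 1 log2 unit. Levels of some tissue markers differed from solvent in the same groups while others, such as those of skeletal muscle, overlapped it. Their part was not tested. Summed bone and cartilage markers (5 of 6 found) were 314 to 378 CPM in solvent, 543 to 688 at 1.13 ng/L and 635 to 691 at 1.57 ng/L. Summed skin markers (3 of 5 found) were 1398 to 2193 CPM in solvent, 1792 to 3210 at 1.13 and 2661 to 3497 at 1.57 ng/L. The single brain and nerve marker found (of 6) had means of 72.0 CPM in solvent, 44.1 at 1.13, 46.0 at 1.57, 68.3 at 6.22, 49.0 at 16.3 and 61.0 at 55.1 ng/L. In the same order of groups, summed skeletal muscle markers (2 of 9 found) had means of 4743, 4456, 5050, 5584, 6151 and 6122 CPM. Hepatocyte markers (3 of 11 found) had 1022, 1310, 1088, 872, 810 and 657 CPM. Lens markers (2 of 4 found) had 82.3, 98.4, 46.2, 141, 77.8 and 125 CPM. The single erythrocyte marker found (of 9) had 45.8, 43.2, 49.7, 30.1, 34.5 and 26.2 CPM. Summed intestine markers (3 of 4 found) had means of 56.8 CPM in solvent, 34.5 at 1.13, 38.4 at 1.57, 37.7 at 6.22, 58.8 at 16.3 and 48.0 at 55.1 ng/L. The single kidney marker found (of 3) had 6.92, 6.42, 6.25, 7.76, 6.18 and 6.80 CPM in the same order.

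XR_002474869.1 (1688 bases) was the only member that edgeR called lower in both ranges. In the authors' deposited table it was 1 of 12 members so called, a count not made over all transcripts. It measured 88, 92.7 and 70.6 CPM in solvent, 49.7, 56.5 and 65.5 at 1.13 ng/L, 48.7, 52.9 and 50.7 at 1.57 ng/L and 54.6, 50.4 and 52.1 at 16.3 ng/L. At 6.22 ng/L its libraries lay at 74.4, 87.1 and 75.9 CPM and at 55.1 ng/L at 74.2, 66.6 and 73.5, overlapping solvent. It fell by 0.55 ± 0.09 on the log2 scale at 1.13 ng/L (adjusted p = 0.00427), by 0.65 ± 0.09 at 1.57 (0.00481) and by 0.49 ± 0.09 at 16.3 ng/L (0.0372), all edgeR. The calls in the low groups held without any 1 library. The call at 16.3 ng/L was lost in 11 of 18 such fits, with no filter on low counts and with the replicate block. All these calls were lost when only the 2 groups compared were fitted (edgeR adjusted p = 0.0839, 0.0810 and 0.225).

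Similar in shape was XR_002471051.1 (1542 bases), at 49.9, 45.4 and 32.9 CPM in solvent, 22.1, 21.8 and 28.9 at 1.13 ng/L and 20.1, 21.6 and 24.9 at 1.57 ng/L. It fell by 0.82 ± 0.15 at 1.13 ng/L (adjusted p = 0.0110) and by 0.87 ± 0.15 at 1.57 ng/L (0.0163). The first call was lost without solvent replicate A, 1.13 ng/L A or 1.13 ng/L B, and the other without solvent A, solvent B, 1.57 ng/L A or 1.57 ng/L B. Both were also lost when only the 2 groups compared were fitted (edgeR adjusted p = 0.0812 and 0.0868). XR_002469411.1 and XR_002469420.1, of 1169 and 754 bases, fell at both concentrations by 0.48 to 0.58, with adjusted p-values of 0.00489 to 0.0154. XR_002469420.1 kept both calls without any 1 library and lost both when only the 2 groups compared were fitted. XR_002469411.1 lost its call at 1.57 ng/L without solvent A, solvent B or 1.57 ng/L B. It too lost both calls when only the 2 groups compared were fitted.

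Of the 33 members from long noncoding RNA genes, 7 (21.2%) were called at 1.13 ng/L and 1 (3.03%) at 1.57 ng/L, beside 19% and 10.1% of all members and backgrounds of 3.76% and 1.67%, which sets nothing apart about these genes. LOC110494310 (XR_002469251.1), the member second in TPM, measured 972, 877 and 943 CPM in solvent and 631, 648 and 736 at 1.13 ng/L. The groups did not overlap, and it fell by 0.48 ± 0.13 (adjusted p = 0.0486). That call was lost without any 1 of 15 libraries and with only the 2 groups compared in the fit. It was also lost with no filter on low counts and with the replicate block. Its levels at 6.22 ng/L (955 to 1092 CPM) and 55.1 ng/L (925 to 1122) overlapped solvent. LOC110531307 (XR_002474638.1) fell by 0.79 ± 0.15 at 1.13 ng/L, with means of 83.1 ± 8.22 CPM in solvent and 48.2 ± 7.41 CPM in the exposed group (adjusted p = 0.0107). LOC110523608 (XR_002473470.1) had means of 32.7 ± 4.30 CPM in solvent and 18.5 ± 0.829 at 1.13 ng/L (log2 fold change -0.83 ± 0.20, adjusted p = 0.0369), and its means at 6.22 and 55.1 ng/L were 42.5 ± 11.7 and 41.1 ± 1.05. That call was lost in 8 of the 18 fits without 1 library and with the replicate block. The call of LOC110531307 was lost without 1.13 ng/L replicate B and with only the 2 groups compared in the fit.

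At the low concentrations only, edgeR called 2 members higher. XR_002469112.1 (4116 bases) measured 78.0, 81.0 and 88.8 CPM in solvent, 168, 198 and 167 at 1.13 ng/L and 144, 165 and 141 at 1.57 ng/L. In the 9 libraries of the 3 higher concentrations it ranged from 74.4 to 96.5 CPM, so the 2 low groups stood above all others with no overlap. It rose by 1.09 ± 0.15 at 1.13 ng/L (adjusted p = 0.00152), a call kept under every alternative tried, and by 0.92 ± 0.15 at 1.57 ng/L (0.0107). The latter call was lost without solvent replicate A, solvent B or 1.57 ng/L B, and with only the 2 groups compared in the fit. The other, named after its values were seen, was XR_002474573.1 (5423 bases), which went from 39.5 ± 2.49 CPM to 51.8 ± 2.61 at 1.13 ng/L (log2 fold change 0.38 ± 0.07, adjusted p = 0.00817).

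**Figure D4:**
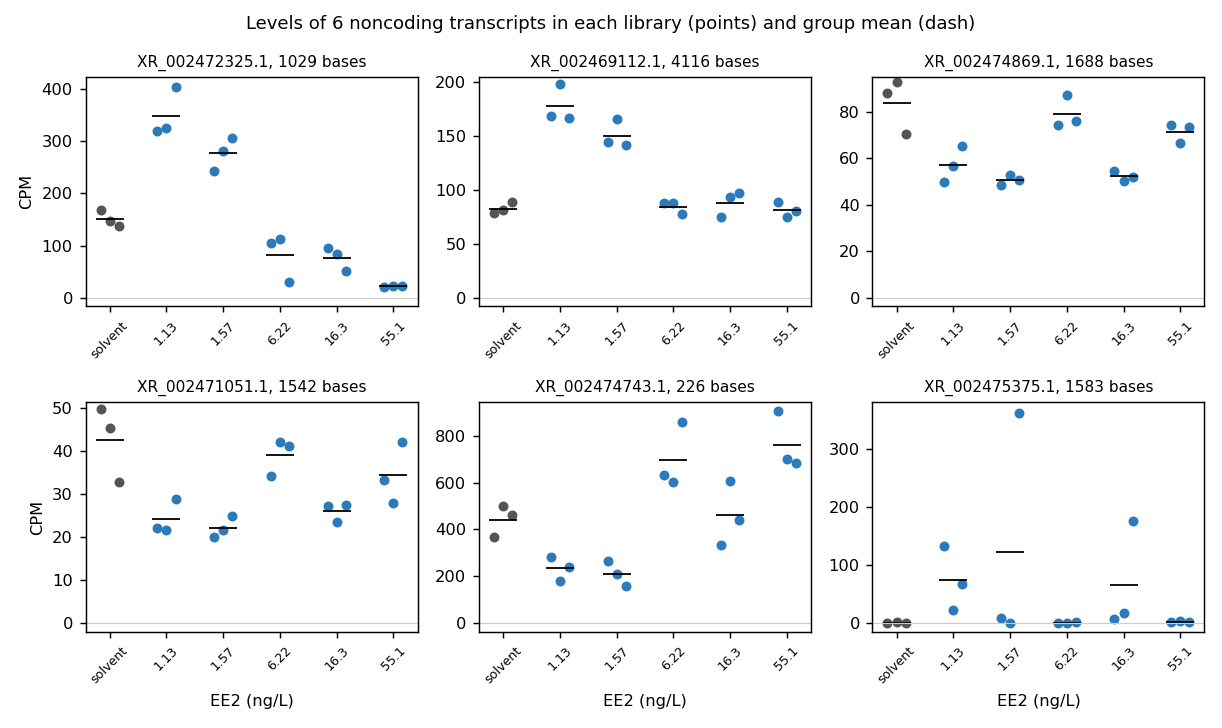
CPM of 6 members in each library (points: grey for solvent, blue for EE2; dash: group mean) across the solvent group and the 5 EE2 concentrations, each panel with its own axis from 0. XR_002472325.1 falls to 20.6 to 23.4 CPM at 55.1 ng/L, XR_002469112.1 is high at 1.13 and 1.57 ng/L only, XR_002474869.1 and XR_002471051.1 are low there, XR_002474743.1 is lowest there, and XR_002475375.1 reaches 362 CPM in 1 library.

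XR_002474743.1 (226 bases) was lowest at the low concentrations and was called against solvent nowhere by edgeR. The authors' deposited table calls it lower at 1.13 (adjusted p = 0.0154) and 1.57 ng/L (0.00944) and higher at 55.1 ng/L (0.0363). Its libraries measured 367, 498 and 459.9 CPM in solvent, 284, 179 and 242 at 1.13 ng/L and 266, 211 and 159.7 at 1.57 ng/L. They measured 634, 601 and 856 CPM at 6.22 ng/L, 332, 607 and 441 at 16.3 ng/L and 905, 699 and 682 at 55.1 ng/L. Both low groups lay below solvent and both 6.22 and 55.1 ng/L above it, without overlap. The F test among the 6 groups gave an adjusted p of 0.00348, with log2 fold changes of -0.92 ± 0.30 at 1.13 ng/L (adjusted p = 0.121) and 0.97 ± 0.30 at 55.1 ng/L (0.331). Another short member, XR_002473362.1 (248 bases), had means of 27.1 ± 10.9 CPM in solvent, 18.4 ± 5.96 at 1.13, 15.4 ± 4.46 at 1.57, 40.2 ± 11.5 at 6.22 and 39.5 ± 5.28 at 55.1 ng/L (adjusted p = 0.0328 among the 6 groups). The 16 members under 500 bases had medians of -0.21 and -0.23 at 1.13 and 1.57 ng/L, beside -0.20 at both for all 179 members. A fall there was thus not particular to the short members. At 6.22 and 55.1 ng/L their medians were 0.26 and 0.28, against 0.06 and 0.01 for all members. Above 0 lay 13 and 12 of the 16 there, against 113 and 96 of the 179. At 16.3 ng/L their median was -0.04, beside -0.07 for all members.

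A few members were present in some pools and near 0 in others of the same group. LOC110536153 (XR_002475375.1), a long noncoding RNA, varied the most, by 209% over the 18 libraries. It had 0, 26 and 0 reads in the solvent libraries and 3732, 631 and 1783 at 1.13 ng/L, where all 3 lay above solvent. At 1.57 ng/L it had 198, 0 and 11894 reads and at 16.3 ng/L 131, 524 and 3919, while 6.22 and 55.1 ng/L had 12 to 57. By edgeR no comparison was called (adjusted p of 0.117 to 1.00 against solvent). The authors' deposited table calls it higher at 1.13 (adjusted p = 0.00688), 1.57 (0.00340) and 16.3 ng/L (0.0248). It reached its mean of 44.9 CPM through libraries of these groups, so those calls are not independent of its choice as a member. XR_002473122.1, named after its values were seen, had 664, 966 and 655 reads in solvent, 5149, 9 and 1465 at 1.13 ng/L and 1602, 1189 and 4485 at 1.57 ng/L. It had 0, 0 and 265 reads at 6.22 ng/L, 0, 3726 and 2134 at 16.3 ng/L and 2602, 0 and 640 at 55.1 ng/L. Under 3 reads in at least 1 library lay 5 members, namely these, XR_002470823.1, XR_002471294.1 and XR_002474586.1, and 172 had 100 reads or more in every library.

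Other variable members have a sister transcript of the same gene, or a neighbour by accession, among the members. Whether the transcripts of a pair moved against each other was not tested. In LOC110508373, a protein-coding gene, XR_002471294.1 measured 104, 84.5 and 40.5 CPM in solvent and 0.00514, 0.348 and 26.5 at 55.1 ng/L. Its sister XR_002471293.1 measured 67.9, 62.1 and 121 CPM in solvent and 159, 152 and 125 at 55.1 ng/L. Separately they varied by 109% and 29.5%, but their sum varied by only 8.20%, between 127 and 172 CPM. The share of XR_002471293.1 in the pair was 52.3% in solvent and 94.1% at 55.1 ng/L on average, and no change of either was called by edgeR or in the authors' deposited table. Estimated counts divide reads between transcripts that share sequence, so the values of each sister alone are uncertain.

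In LOC110530711, XR_002474586.1 varied by 95.3% and XR_002474587.1 by 22.1%, and their sum by 13.4%. XR_002470823.1 (13669 bases) and its neighbour by accession XR_002470824.1 are the longest pair; whether they share sequence was not tested. XR_002470823.1 had 589, 313 and 1203 reads in solvent, 0, 339 and 0 at 1.13 ng/L and 41, 0 and 1233 at 6.22 ng/L. It had 0 in every library at 1.57 and 16.3 ng/L after rounding, and 0, 1570 and 1063 at 55.1 ng/L. Under 3 reads lay 10 of its 18 libraries. Against a floor of 3 reads over a group, its pooled reads were at least 1344-fold lower at 1.57 ng/L and at least 1174-fold lower at 16.3 ng/L than in solvent. Those bounds cover counting error only, not the switching between pools of 1 group. Neither difference was called by edgeR (adjusted p = 0.216 and 0.435). The authors' deposited table calls it lower at both (adjusted p = 2.43e-09 and 1.44e-08). Its log2 fold changes there, -26.9 and -25.9, come from groups with 0 reads after rounding. XR_002470823.1 reached its mean of 22.8 CPM mostly through libraries of solvent, 6.22 and 55.1 ng/L. Those calls and the bounds are thus not independent of its choice as a member. XR_002470824.1 stood at 276 ± 44.9 CPM in solvent, 228 ± 109 at 1.57 ng/L and 277 ± 15.2 at 16.3 ng/L. Of 13 pairs of members with adjacent accessions, the sum varied less than either member in 5, the other 2 being XR_002469665.1 with XR_002469666.1 and XR_002469973.1 with XR_002469974.1. In those 2 the sums varied by 8.51% and 21.9%, little less than the steadier member (9.70% and 22.5%). A sum can vary less than its parts without these moving against each other, so the count does not show opposite movement.

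**Figure D5:**
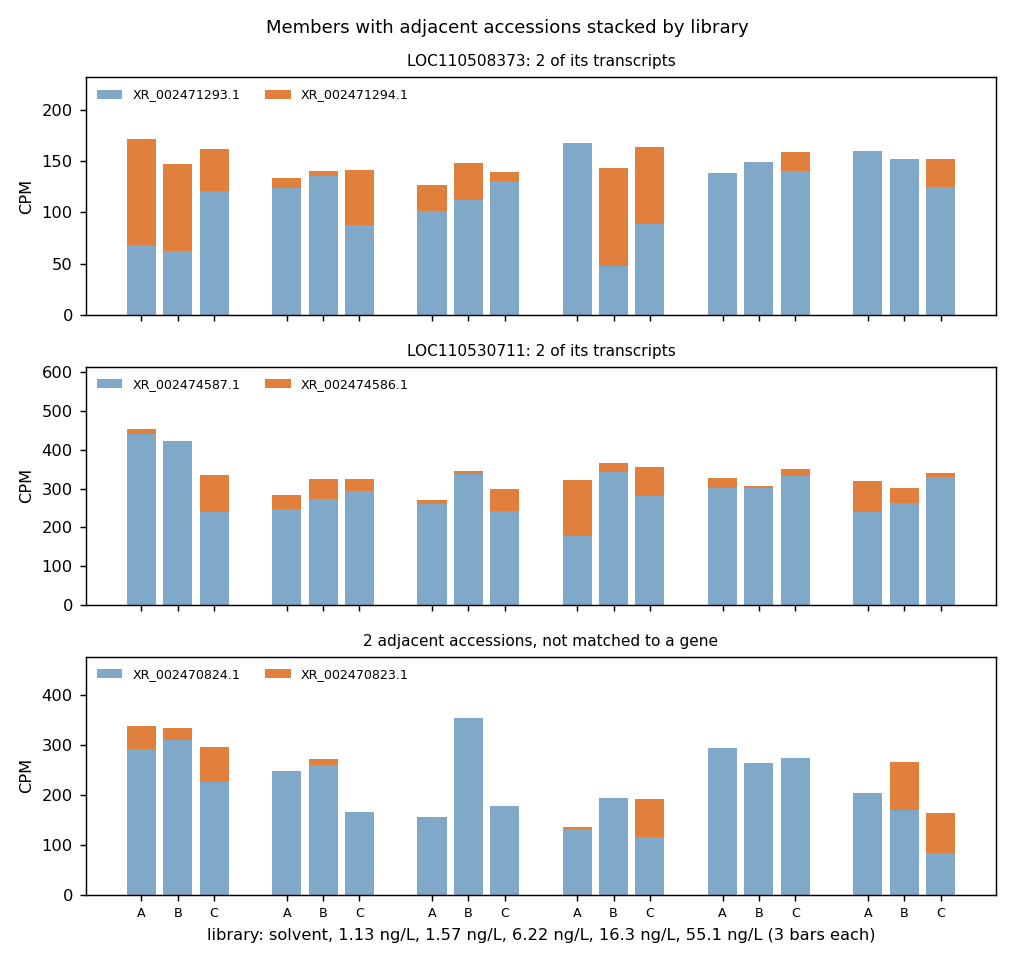
Stacked CPM (from 0) of 3 pairs of members with adjacent accessions, 2 of them pairs from 1 gene, in each of the 18 libraries, 3 bars per group from solvent at the left to 55.1 ng/L at the right. In LOC110508373 the split shifts from library to library while the sum stays between 127 and 172 CPM. XR_002470823.1 is at or near 0 in all libraries at 1.57 and 16.3 ng/L and in some at 1.13, 6.22 and 55.1 ng/L.

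Among the 18 transcripts of protein-coding genes, the noncoding transcript was nearly all of the gene's reads in some. In 5 (LOC110530616, LOC110492187, rarres3l, LOC110492754 and LOC110524751) it held 90% or more, in 6 from 50% to 90% and in 7 under 50%. LOC110530616 (XR_002474560.1) and LOC110492187 (XR_002468971.1) had all but a trace of their gene's counts, at 58.3 and 26.5 CPM over the 18 libraries. XR_002468515.1 held 98.6% of rarres3l, at 31.2 ± 1.00 CPM in solvent and 28.1 ± 1.26 at 55.1 ng/L, with no call by edgeR. The call in this class was cirbpb (XR_002473564.1, named after its values were seen), whose gene encodes a cold-inducible RNA-binding protein. The transcript measured 49.5, 46.5 and 47.9 CPM in solvent, 35.7, 39.3 and 40.2 at 1.13 ng/L and 33.4, 32.5 and 33.1 at 1.57 ng/L. It fell by 0.33 ± 0.06 at 1.13 ng/L (adjusted p = 0.0106) and by 0.48 ± 0.06 at 1.57 ng/L (0.00388). The other 3 transcripts of cirbpb held 535 ± 48.1 CPM in solvent, 467 ± 28.2 at 1.13 and 469 ± 36.2 at 1.57 ng/L, and the transcript's share of the gene was 8.26 ± 0.699%, 7.59 ± 0.103% and 6.60 ± 0.560%.

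The authors' deposited tables list all 179 members and call more of them. The authors' deposited table called 64 members at 1.13 ng/L (15 higher, 49 lower; background 17.6%) and 58 at 1.57 ng/L (14 higher, 44 lower; background 13.3%). The authors' deposited table called only XR_002471738.1 at 6.22 ng/L (1 member, lower; background 1.32%), 22 members at 16.3 ng/L (10 higher, 12 lower; background 3.65%) and 14 at 55.1 ng/L (background 3.08%). Every member called by edgeR in a comparison with solvent was also called in the authors' deposited table for that comparison, with the same sign. At 55.1 ng/L the authors' deposited table called 10 higher and 4 lower, and the 10 included all 6 of the set that moved together, with log2 fold changes of 1.30 to 1.63. For XR_002472325.1 the authors' deposited table gives a log2 fold change of -2.56 ± 0.31 at 55.1 ng/L (adjusted p = 1.1e-13). The authors' deposited table also calls it higher at 1.13 ng/L (1.20, adjusted p = 0.00163) and at 1.57 ng/L (0.92, 0.0271), where edgeR did not.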

How the data were processed

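RNA was measured in 18 libraries of pooled whole alevins, 3 in each of 6 groups, grouped by the treatment in the labels. Reads were trimmed with Trimmomatic 0.38 and quantified with kallisto, and the authors compared groups with DESeq2, per the submitters' processing notes. The genome build is not given in the sources used here. The authors deposited each transcript's estimated counts (each an estimated count from kallisto), length, effective length and TPM, per the file headers. The authors' deposited tables of comparisons hold the mean normalised signal, the log2 fold change with its error, and the p-value with its adjusted value. A group at 169 ng/L named in the study design was not analysed here. Columns belonging to other samples numbered 0.

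Estimated counts were rounded and fitted in edgeR 4.0.16 (R 4.3.3, limma 3.58.1) with filterByExpr, TMM factors of 0.856 to 1.12 and the quasi-likelihood F test. All 18 libraries shared 1 model with 12 residual degrees of freedom, without a replicate block, and p-values were Benjamini-Hochberg adjusted over 59811 transcripts, with calls at 0.05. The trend used log2 of the concentration plus 1, with solvent at 0. A standard error is the log2 fold change divided by the square root of F. Fold changes use TMM and can differ from ratios of CPM means. Gene names came from a RefSeq table, matched by accession without version. The script was tested on simulated data. DESeq2 1.42.0, RLE factors, no filter, a replicate block, a length correction, gene sums, only the 2 groups compared, fewer groups in the trend and leaving out each library were the alternatives. Summaries and figures used Python 3.11.15, pandas 2.3.3 and matplotlib 3.10.9. Named members were those highest in CPM, shortest, longest, least and most variable, and with the largest or most significant called changes. The members and lists were chosen with earlier results of these data known. Totals of 12658946 to 32851570 counts set the precision, and floors of 3 reads cover counting error only.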

Additional observations from a re-analysis of the deposited data

How the results depend on the processing

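With DESeq2 the called members numbered 60 at 1.13 ng/L (12 higher, 48 lower), where 10.5% of all transcripts were called, and 51 at 1.57 (12 higher, 39 lower; 8.09%). They numbered 21 at 16.3 (9 higher, 12 lower; 2.16%), 13 at 55.1 ng/L (9 higher, 4 lower), 17 in the trend (13 higher, 4 lower; 3.92%) and 95 among the 6 groups (18.7%). Without a filter on low counts the count at 1.57 ng/L was 11 (0.968% of all called). With the transcripts of a gene summed it was 28 (4.26%). With only the 2 groups compared in the fit 9 members were called at 1.13 ng/L and 0 at 1.57. Of all transcripts that fit called 0.460% and 0.0151%. The trend called 0 members without the 1.13 and 1.57 ng/L groups (0.0399% of all transcripts called). It called 5 within the 1.13 to 16.3 ng/L groups (0.950%), an alternative chosen after seeing the data. The causes were not tested. RLE size factors moved no count of calls by over 1.5 times. Leaving out 1 library gave 8 to 37 calls at 1.13 ng/L, 3 to 20 at 1.57, 0 to 0 at 6.22, 0 to 7 at 16.3, 1 to 7 at 55.1 ng/L, 1 to 4 in the trend and 41 to 59 among the 6 groups. At 1.13 ng/L the fits with 8 and 37 members called 712 and 2318 of all transcripts. Of 37 calls of named members, 8 held without any single library, 2 held in all alternatives and 0 reversed. The replicate letters were also added as a block. With the replicate block the counts were 28, 12, 0, 4 and 1 from the lowest to the highest concentration, 1 in the trend and 51 among the 6 groups. The shares of all transcripts called were, in that order, 3.06, 1.21, 0.0468, 0.161, 0.174, 0.284 and 5.76%. Over all transcripts tested, libraries with the same letter did not deviate together (r of -0.0274 to 0.0327), and 7 of 18 were closest to their own letter. What the letters stand for is not stated, and a shared batch that moves few transcripts would not show in this check. Groups of 3 pools and totals that differ between groups limit what can be called.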

Other observations

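The coding transcript whose profile over the 18 libraries lay closest to that of the abundant noncoding XR_002469284.1, among coding transcripts at 20 CPM or more, was pink1 (XM_021616599.1, 3081 bases), which encodes a mitochondrial quality-control kinase. It was chosen after its values were seen. Its means were 135 ± 11.9 CPM (SD, n = 3) in solvent, 297 ± 57.2 at 1.13, 253 ± 26.4 at 1.57, 160.0 ± 96.4 at 6.22, 401 ± 49.9 at 16.3 and 263 ± 37.1 at 55.1 ng/L.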
